A study of Mus musculus with 8 samples.

Results

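The genes described here encode the subunits of eIF2, the subunits of its exchange factor eIF2B, and the factors eIF5 and eIF5B, which act when the ribosomal subunits join at a start codon. They were chosen by name, as the 10 mouse genes Eif2s1, Eif2s2, Eif2s3x, Eif2b1, Eif2b2, Eif2b3, Eif2b4, Eif2b5, Eif5 and Eif5b, out of 54838 genes in the count table. All 10 were found, and all 10 were among the 10911 genes with enough counts to be tested. RNA was measured in 4 samples labelled Vehicle and 4 labelled AG636, all of them acute myeloid leukaemia (AML) cells of C57BL/6 background that carry the RUNX1-RUNX1T1 fusion. The cells of both groups had been transplanted into Ptprca mice, which were sub-lethally irradiated per the labels, whereas the methods of the study name irradiation for its other models only. AG636 inhibits DHODH, an enzyme of de novo pyrimidine synthesis, and was given by oral gavage b.i.d. at 100 mg/kg.

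The leukaemia cells were sorted from bone marrow and spleen, and the labels do not say which sample came from which tissue or whether each sample was a separate mouse. The text of the study describes the sorted cells of this model as high in cKit. The legend for these RNA data gives them as positive for cKit and negative for CD11b. The methods give sorted AML cells as high in cKit and low in CD11b. The sources differ on the length of treatment, which is 1 day in the legend for these RNA data and 4 days in the heading of the accompanying gene list. That legend also lists fewer mice per group than there are samples, so the p-values measure the spread between these samples, which may be in part technical.

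eIF2 is a trimer that binds GTP and carries the initiator methionyl-tRNA to the small ribosomal subunit. At the start codon eIF5 makes eIF2 hydrolyse its GTP, and eIF5B then promotes joining of the large subunit. eIF2B reloads eIF2 with GTP, and phosphorylation of eIF2 alpha by stress-activated kinases turns eIF2 into an inhibitor of eIF2B, which lowers initiation on most mRNAs.

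The samples held 6120030 to 7162036 counts each, and no member fell under 157 counts in any sample. Leukaemia and progenitor markers (Kit, Cd34, Flt3, Myb, Runx1 and Runx1t1) summed to 853 to 952 CPM in Vehicle (CPM, counts scaled to the size of the library) and 932 to 1141 in AG636, and none of the 5 tested passed the test. Erythroid markers summed to 4376 to 8227 CPM in Vehicle and 7273 to 8401 in AG636. The sums for T and NK cells were 7.45 to 15.2 and 9.18 to 24.6 CPM, for B cells 5.38 to 13.4 and 10.7 to 22.5, for megakaryocytes 12.02 to 18.1 and 13.1 to 61.0, for neutrophils 39.9 to 92.8 and 14.3 to 174, and for monocytes and macrophages 10.2 to 15.2 and 12.3 to 18.2. All these ranges overlap between the groups, and of all tested markers only Cd79a, a B cell gene, passed, with 2 to 7 counts per Vehicle sample and 10 to 22 per AG636 sample. Ncr1 and Ly6g were at 0 in all Vehicle samples. The part of these cells in the results below was not tested, and in bulk RNA fewer cells of a type and less RNA per cell cannot be told apart.

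Most of the initiation genes had lower levels in AG636 samples. Eif2s1, Eif2s3x, Eif2b1, Eif2b5 and Eif5 passed the test and were 21.5% to 32.6% lower in mean CPM, whereas Eif2s2, Eif2b2 and Eif5b were 15.5% to 17.1% lower without passing, and the group means of Eif2b3 and Eif2b4 were 100.7% and 94.3% of those in Vehicle. The counts were 5 of 10 called lower, beside 8.49% of all tested genes, and 0 of 10 called higher, beside 5.47% (limma-voom, Benjamini-Hochberg adjusted p under 0.05 over 10911 genes). In average level the 10 genes ran from percentile 49.2 (Eif2b3) to 98.9 (Eif5b) of all tested genes. Genes with more counts pass more easily, and the shares over all tested genes are not matched for level. At an unadjusted p under 0.05 there were 8 lower, beside 17% of all tested genes. The median log2 fold change of the 10 genes was -0.31, and that of all tested genes was -0.0056. In 7 of 10 genes every AG636 sample lay below every Vehicle sample, which was the case for 12.9% of all tested genes. The count of calls depended on the samples and the scaling: it was 3 with library size in place of TMM factors, 2 without Vehicle 1, 3 or 4, 3 without Vehicle 2 or without AG636 1, 2 or 3, and 5 without AG636 4.

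**Figure D1:**
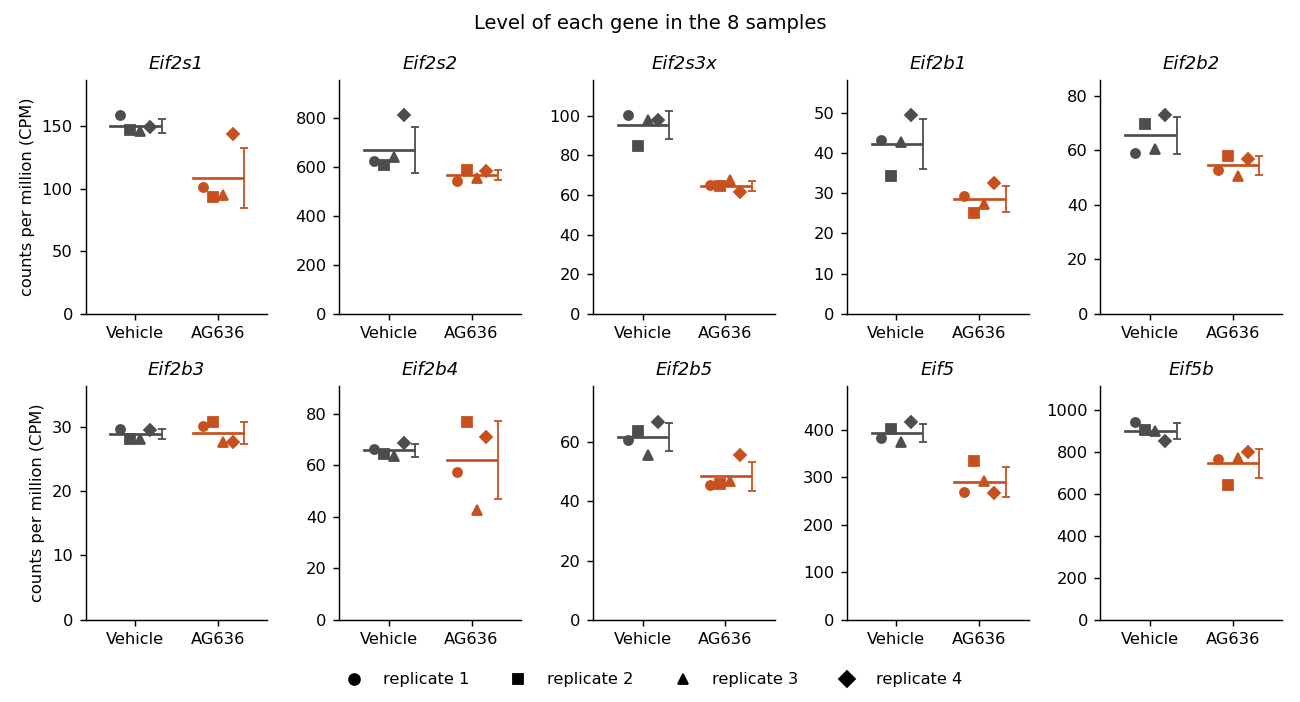
Level of each of the 10 genes in CPM (vertical axes from 0) in the 4 Vehicle samples (grey) and the 4 AG636 samples (orange), with marker shapes for replicate numbers, a horizontal line at the group mean and an error bar of 1 SD beside it. In Eif2s3x the AG636 samples sit between 61.6 and 67.7 CPM and the Vehicle samples between 84.8 and 100.2, whereas for Eif2b3 the AG636 samples lie on both sides of the Vehicle samples.

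The promoter sequences are shown because the study examined transcription factor motifs, chiefly of YY1 and ETS factors, at promoters of translation genes. The study used motif matrices over a longer window, motifs in open chromatin, and chromatin immunoprecipitation. Here fixed strings were matched, with windows of genes expressed or not as background, so the shares below cannot be set beside its enrichments. Windows on GRCm38.p6 ran from 250 bases before to 50 bases after the RefSeq start of the gene. They were at hand for 9 of the 10 genes, all but Eif2b3. A YY1-type motif, AANATGGC on either strand, was found in 3 of the 9 windows and in 6.05% of 32851 windows in all. An ETS-type motif, CCGGAAGT on either strand, was in 2 of the 9 and in 3.89% of all windows, and the E-box CACGTG was in 0 of the 9 and 7.15% of all. No motif overlapped another. These matches are descriptions of letters and not measured binding sites. The stretches of 30 bases around each match follow, on the strand of the gene, with the motif in capitals.
Eif2s2, YY1-type, chr2:154893119-154893148, minus strand: gttaaacctgaAAAATGGCcccaaattcac
Eif2s3x, YY1-type, chrX:94212618-94212647, minus strand: tctctccgagcAAGATGGCtgggggtgagg
Eif2b4, YY1-type on the opposite strand, chr5:31193295-31193324, minus strand: cagcccagctcGCCATTTTggtgggcctga
Eif2b4, ETS-type, chr5:31193120-31193149, minus strand: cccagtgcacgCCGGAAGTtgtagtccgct
Eif2b2, ETS-type, chr12:85219486-85219515, plus strand: cctctctcggcCCGGAAGTgaaacagtgct

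The match in Eif2s3x began 15 bases after the RefSeq start and contained the annotated start codon of the gene, so that its letters are also the start site context of eIF2 gamma itself. The match in Eif2s2 lay 231 bases before the start. In Eif2b4 the YY1-type match was 174 bases before the RefSeq start. Other annotated starts of Eif2b4 lie further upstream, so this match was inside the gene as counted and inside its overlap with Snx17. The ETS-type match was 1 base after the RefSeq start in Eif2b4 and 16 bases after it in Eif2b2. Of the 4 genes with a match, Eif2s3x passed the test and Eif2s2, Eif2b2 and Eif2b4 did not. The windows of Eif2s1, Eif2b1, Eif2b5, Eif5 and Eif5b held none of the 3 motifs. For Eif2s1 the window, chr12:78861822-78862121, lay wholly after the gene start in the count table, chr12:78861819. The bases before that start were therefore not searched. The bases before every annotated start of the joining factor genes are shown for contrast with the matches.
Eif5, chr12:111537851-111538015, plus strand: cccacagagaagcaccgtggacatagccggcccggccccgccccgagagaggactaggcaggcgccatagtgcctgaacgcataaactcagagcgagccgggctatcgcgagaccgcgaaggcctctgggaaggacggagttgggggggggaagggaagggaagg
Eif5b, chr1:37997894-37998009, plus strand: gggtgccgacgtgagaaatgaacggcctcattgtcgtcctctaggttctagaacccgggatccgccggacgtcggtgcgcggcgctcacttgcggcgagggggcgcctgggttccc

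Of the eIF2 genes, Eif2s3x and Eif2s1 were called lower. Eif2s3x encodes eIF2 gamma, the subunit that binds GTP and the initiator tRNA (ENSMUSG00000035150, chrX:94188707-94212862, minus strand). Its levels in Vehicle 1 to 4 were 100.2, 84.8, 97.8 and 98.0 CPM, and in AG636 1 to 4 they were 65.2, 64.5, 67.7 and 61.6 CPM. All AG636 samples lay below the lowest Vehicle sample, Vehicle 2, by a gap wider than the whole AG636 range. The log2 fold change was -0.55 ± 0.09 (SE, 95% interval -0.74 to -0.37, limma-voom adjusted p = 0.0040), the smallest p of the 10 genes. The Y-linked copy, Eif2s3y, was listed at 0 counts in all 8 samples.

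Eif2s1 encodes eIF2 alpha, the subunit that the stress kinases phosphorylate (ENSMUSG00000021116, chr12:78861819-78887010, plus strand). It was at 158.8, 147.1, 146.5 and 149.4 CPM in Vehicle 1 to 4 and at 101.2, 93.4, 95.3 and 144.3 CPM in AG636 1 to 4. AG636 1 to 3 lay far below all Vehicle samples, and AG636 4 lay just under the lowest of them. Its log2 fold change was -0.49 ± 0.13 (SE, limma-voom adjusted p = 0.030). Without AG636 4 it was -0.62 (adjusted p = 0.0024), and the call was lost without any other single sample, with adjusted p-values of 0.052 to 0.085.

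Eif2s2 encodes eIF2 beta (ENSMUSG00000074656, chr2:154871410-154892935, minus strand). Its Vehicle levels were 624.6, 604.9, 639.9 and 809.2 CPM and its AG636 levels 543.4, 586.8, 554.0 and 580.5 CPM. The groups did not overlap, but Vehicle 4 stood well above the other Vehicle samples. The log2 fold change of -0.23 ± 0.10 (SE, 95% interval -0.45 to -0.01) did not pass (limma-voom adjusted p = 0.141), and without Vehicle 4 it was -0.12 (adjusted p = 0.360).

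eIF2B has a catalytic part, made of the epsilon subunit (Eif2b5) and the gamma subunit (Eif2b3), and a regulatory part, made of the alpha (Eif2b1), beta (Eif2b2) and delta (Eif2b4) subunits, which reads the phosphorylation of eIF2. The 5 genes had unequal differences, and 2 of them were called lower. Whether they differed from one another was not tested.

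Among the regulatory subunits, Eif2b1 had the lowest log2 fold change of the 10 genes (ENSMUSG00000029388, chr5:124570213-124579131, minus strand). Its Vehicle levels were 43.3, 34.3, 42.7 and 49.4 CPM and its AG636 levels 29.2, 25.1, 27.4 and 32.7 CPM. The groups did not overlap, with Vehicle 2 and AG636 4 nearest to each other. The fit gave a log2 fold change of -0.56 ± 0.13 (SE, limma-voom adjusted p = 0.021). Without Vehicle 1, 3 or 4 the call was lost, with adjusted p-values up to 0.063.

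Eif2b2 (ENSMUSG00000004788, chr12:85219481-85226628, plus strand) was at 59.1, 69.8, 60.7 and 72.9 CPM in Vehicle 1 to 4 and at 52.7, 58.1, 50.4 and 56.8 CPM in AG636 1 to 4. AG636 2, the highest treated sample, was only just below Vehicle 1, the lowest control. Its log2 fold change of -0.26 ± 0.10 (SE, 95% interval -0.48 to -0.04) did not pass (limma-voom adjusted p = 0.103).

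Eif2b4 (ENSMUSG00000029145, chr5:31187558-31193430, minus strand) was the gene with the widest spread under treatment. Its Vehicle samples were at 66.4, 64.2, 63.4 and 68.8 CPM and its AG636 samples at 57.5, 76.9, 42.6 and 70.8 CPM. AG636 2 and 4 lay above every Vehicle sample, AG636 1 and 3 lay below, and the coefficient of variation was 3.64% in Vehicle and 24.6% in AG636. Its log2 fold change was -0.12 ± 0.16 (SE, 95% interval -0.47 to 0.23, limma-voom adjusted p = 0.659). Its first 204 bases overlap Snx17 on the other strand, and the sources do not say whether strand was used in counting. This overlap is at the 5′ starts of both genes, whereas the kit reads 3′ ends. Snx17 had 1604 counts over all samples, beside 3345 for Eif2b4.

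Of the catalytic subunits, Eif2b5 carries the exchange activity (ENSMUSG00000003235, chr16:20498817-20509323, plus strand). It was at 60.6, 63.6, 55.6 and 66.9 CPM in Vehicle 1 to 4 and at 45.4, 45.8, 46.9 and 55.6 CPM in AG636 1 to 4. AG636 4 was level with Vehicle 3, and the other treated samples lay close together below every Vehicle sample. The fit gave a log2 fold change of -0.35 ± 0.10 (SE, limma-voom adjusted p = 0.044), and the call was lost in 11 of 16 alternative settings, among them without any 1 sample but AG636 4, with adjusted p-values up to 0.122.

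Eif2b3, its partner in the catalytic part (ENSMUSG00000028683, chr4:117019402-117087306, plus strand), had 29.6, 28.1, 28.2 and 29.5 CPM in Vehicle 1 to 4 and 30.2, 30.8, 27.6 and 27.6 CPM in AG636 1 to 4. The treated samples lay on both sides of the control range. Its log2 fold change was 0.01 ± 0.10 (SE, limma-voom adjusted p = 0.970), with a 95% interval of -0.21 to 0.22.

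Eif5 encodes the GTPase activator of eIF2 (ENSMUSG00000021282, chr12:111538016-111546752, plus strand). Its levels were 382.4, 400.2, 373.6 and 416.7 CPM in Vehicle 1 to 4 and 269.0, 333.4, 291.4 and 265.8 CPM in AG636 1 to 4. No treated sample reached the Vehicle range, and AG636 2 was the nearest to it. The fit gave a log2 fold change of -0.44 ± 0.09 (SE, 95% interval -0.64 to -0.24, limma-voom adjusted p = 0.011).

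Eif5b encodes the GTPase that brings the large subunit to the initiation complex (ENSMUSG00000026083, chr1:37998010-38055579, plus strand). It was at 946.1, 906.8, 903.1 and 854.0 CPM in Vehicle 1 to 4 and at 769.8, 645.5, 773.0 and 802.5 CPM in AG636 1 to 4. The groups did not overlap, and AG636 2 was lowest. The log2 fold change was -0.28 ± 0.09 (SE, 95% interval -0.47 to -0.08) and did not pass with limma-voom (adjusted p = 0.061), although it did with DESeq2 (adjusted p = 0.033) and with no filter on low counts (adjusted p = 0.024). The last 2794 bases of Eif5b overlap Rev1 on the other strand, which had 1878 counts over all samples beside 43233 for Eif5b. This overlap is at the 3′ ends of both genes, where the kit reads, and the use of strand in counting is not given.

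**Figure D2:**
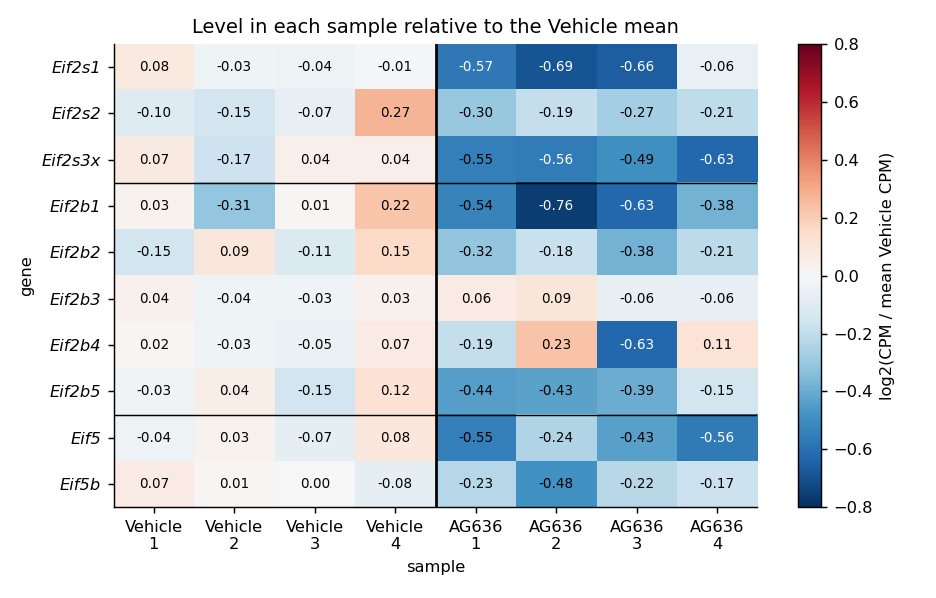
Level of each gene (rows) in each sample (columns) as the log2 ratio of its CPM to the mean Vehicle CPM, printed in each cell and coloured blue for lower and red for higher, with lines between the groups and between eIF2, eIF2B and the joining factors. Eif2s3x and Eif5 are lower in all 4 AG636 samples, AG636 4 has an Eif2s1 value of -0.06, and Eif2b4 runs from -0.63 in AG636 3 to 0.23 in AG636 2.

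The lower levels were spread over the AG636 samples. AG636 3 was below the lowest Vehicle sample in all 10 genes, AG636 1 in 9, and AG636 2 and AG636 4 in 8 each. The summed level of the 10 genes was 2404 to 2615 CPM in Vehicle and 1960 to 2098 CPM in AG636. Within groups the genes did not rise and fall as one. After the group means were taken out, 28 of 45 pairs of genes had a positive Pearson correlation of log2 CPM over the 8 samples and 17 a negative one, with a median of 0.25. Eif2s1 and Eif2b5 had the highest value, 0.74, as both were highest among treated samples in AG636 4. Eif5 and Eif5b had the lowest, -0.91, since AG636 2 was highest for Eif5 and lowest for Eif5b. These values rest on 8 samples and share libraries and scaling factors.

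The 3′ kit gives a read number per transcript that depends little on transcript length, and in CPM not divided by length the Vehicle order was Eif5b, Eif2s2, Eif5, Eif2s1, Eif2s3x, Eif2b4, Eif2b2, Eif2b5, Eif2b1 and Eif2b3. Each neighbour in this order was separated from the next in all Vehicle samples, except that Eif2b4, Eif2b2 and Eif2b5 overlapped. The mean Vehicle levels were 902.5 ± 37.8 CPM for Eif5b and 28.8 ± 0.81 CPM for Eif2b3 (SD, n = 4). Among the eIF2 genes, Eif2s2 was at 669.6 ± 94.1 CPM, Eif2s1 at 150.5 ± 5.70 CPM and Eif2s3x at 95.2 ± 7.004 CPM.

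To ask whether the balance between partners differed, the log2 ratio of counts of 6 pairs was compared between groups with an exact permutation test (two-sided, 70 ways to relabel the samples), whose smallest possible p is 0.0286. After adjustment over the 6 pairs a single pair could not reach below 0.171, and 4 pairs at the smallest p would have been needed to pass, so that the test could show little. None of the 6 passed. The ratio of Eif5b to Eif2s1 was 2.58 ± 0.05 in Vehicle and 2.80 ± 0.24 in AG636 (SD, n = 4, exact permutation p = 0.143, adjusted p = 0.457). For Eif2s2 to Eif2s1 it was 2.14 ± 0.20 and 2.41 ± 0.28 (exact permutation p = 0.229, adjusted p = 0.457), and for Eif2b5 to Eif2s1 it was -1.29 ± 0.12 and -1.14 ± 0.17 (exact permutation p = 0.171, adjusted p = 0.457). In these 3 pairs the mean ratio over Eif2s1 was higher in AG636, with overlapping ranges. The 3 share Eif2s1, itself called lower, and so are not separate results. The ratio of Eif5 to Eif5b went from -1.20 ± 0.12 to -1.37 ± 0.29 (exact permutation p = 0.314, adjusted p = 0.471). Eif2s3x to Eif2s1 and Eif5 to Eif2s1 differed by -0.06 and 0.05 between the groups, both with an adjusted exact permutation p of 0.943.

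Of 31 related genes, 29 had enough counts to be tested, with 10 called lower and 1 higher (limma-voom), beside 8.49% and 5.47% of all tested genes. Their median log2 fold change was -0.27, against -0.0056 over all tested genes. Mcts2 and Eif2s3y were not tested.

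The kinases that phosphorylate eIF2 alpha were measured and none of the 4 was called. Eif2ak1, the heme-regulated kinase, was at 107.2, 96.1, 92.8 and 116.2 CPM in Vehicle 1 to 4 and at 130.01, 132.8, 91.6 and 121.7 CPM in AG636 1 to 4, with a log2 fold change of 0.20 ± 0.13 (SE, limma-voom adjusted p = 0.321). AG636 3 was the lowest of all 8 samples while the other treated samples were above every Vehicle sample. Eif2ak4, the kinase that senses uncharged tRNA, had -0.16 ± 0.11 (95% interval -0.39 to 0.07), Eif2ak2, the kinase that binds double-stranded RNA, -0.11 ± 0.18 (-0.51 to 0.28), and Eif2ak3, the kinase of the endoplasmic reticulum, 0.01 ± 0.19 (-0.41 to 0.43). Eif2ak3 was the least abundant, at 6.38 to 9.73 CPM.

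Of the phosphatase genes, Ppp1r15a, the stress-induced subunit that directs protein phosphatase 1 to eIF2 alpha, had the highest log2 fold change of the list. It was at 16.8, 24.6, 19.96 and 20.2 CPM in Vehicle 1 to 4 and at 23.6, 33.0, 59.0 and 34.5 CPM in AG636 1 to 4. AG636 3 was highest, and AG636 1 lay within the Vehicle range. The log2 fold change of 0.81 ± 0.25 (SE) did not pass with limma-voom (adjusted p = 0.056) and did in 8 of 16 alternative settings, among them DESeq2 (adjusted p = 0.0048). The constitutive subunit, Ppp1r15b, had -0.21 ± 0.09 (SE, limma-voom adjusted p = 0.121). The catalytic subunit gene Ppp1ca was called lower (-0.36 ± 0.08, limma-voom adjusted p = 0.019), as was Dnajc3, an inhibitor of eIF2 alpha kinases (-0.37 ± 0.10, adjusted p = 0.036).

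Among the scanning partners, Eif1a fell from 92.6 ± 8.50 to 51.6 ± 7.23 CPM (SD, n = 4, log2 fold change -0.85 ± 0.12, limma-voom adjusted p = 0.0023) and Eif1ax from 140.3 ± 5.37 to 107.4 ± 11.8 CPM (-0.39 ± 0.09, adjusted p = 0.019). Both encode eIF1A, which opens the small subunit for scanning, and near-identical copies can share reads, so the division between them is uncertain. Bzw1, a mimic of eIF5 that competes for eIF2, fell as well (-0.59 ± 0.12, limma-voom adjusted p = 0.011). Eif1 and Eif1b were not called. Eif1 had -0.27 ± 0.10 (limma-voom adjusted p = 0.109) without overlap between the groups, and Eif1b had -0.0010 ± 0.09 (adjusted p = 0.995) with overlap.

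Denr and Eif2d, which both act on tRNA at the small subunit outside the eIF2 route, were called in opposite directions. Denr was at 247.1, 204.6, 238.8 and 218.8 CPM in Vehicle 1 to 4 and at 147.6, 114.8, 157.5 and 140.6 CPM in AG636 1 to 4 (log2 fold change -0.70 ± 0.11, limma-voom adjusted p = 0.0040). Eif2d was at 32.8, 28.6, 36.1 and 30.3 CPM in Vehicle and at 43.1, 39.9, 41.2 and 57.7 CPM in AG636 (0.50 ± 0.14, limma-voom adjusted p = 0.035). Neither gene overlapped between groups.

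Of the other called genes, Trmt6 and Trmt61a encode the enzyme that methylates an adenosine of the initiator tRNA. Trmt61a fell from 28.2 to 14.4 mean CPM (log2 fold change -0.97 ± 0.16, limma-voom adjusted p = 0.0048), the lowest value in the list, and Trmt6 had -0.50 ± 0.14 (adjusted p = 0.035). Abce1, which splits ribosomes for reuse, had -0.62 ± 0.11 (limma-voom adjusted p = 0.0057), and Eif6, which keeps free large subunits from joining, had -0.42 ± 0.09 (adjusted p = 0.014). Under all 16 alternatives Eif1a, Bzw1, Denr, Trmt61a, Eif6 and Abce1 stayed called, whereas Ppp1ca, Dnajc3, Eif1ax, Trmt6 and Eif2d each lost the call without Vehicle 1, 3 or 4.

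**Figure D3:**
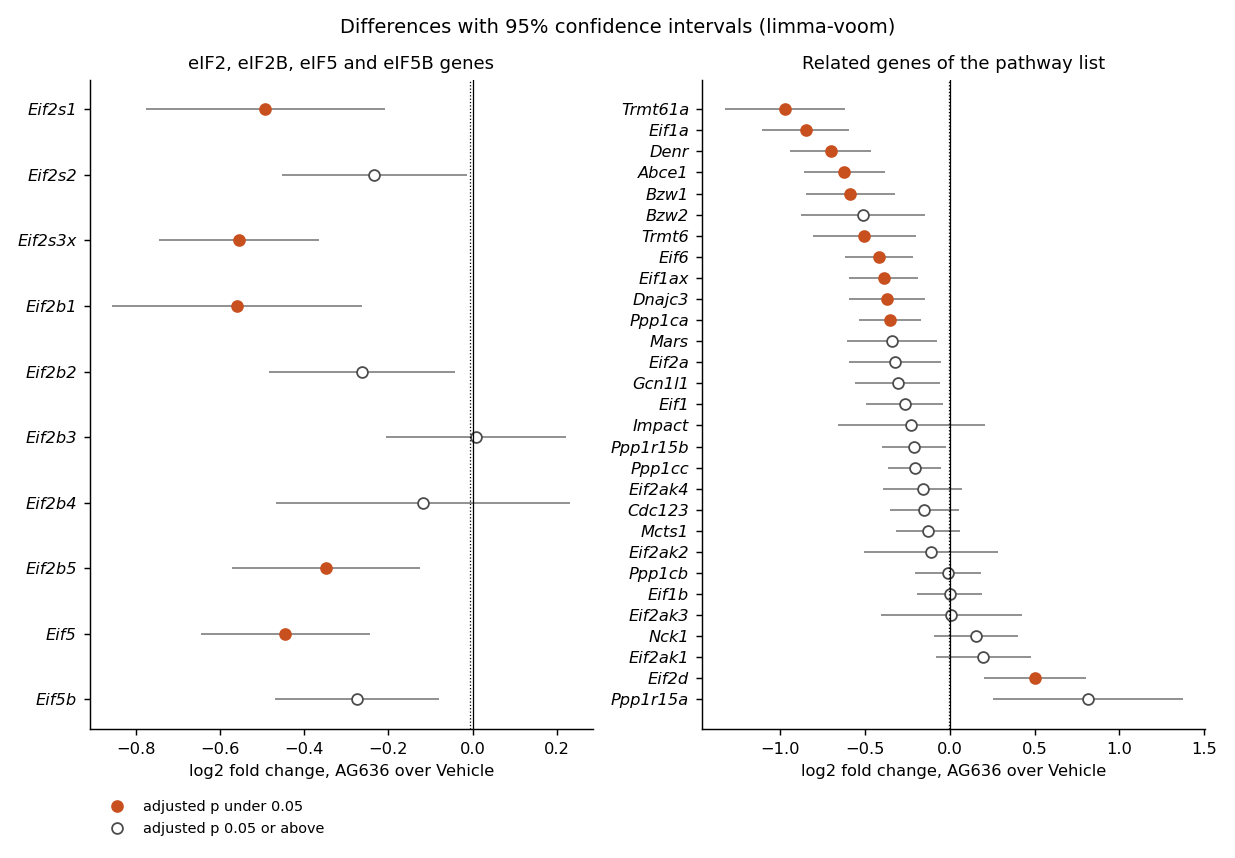
Log2 fold change of AG636 over Vehicle with 95% confidence intervals from limma-voom, for the 10 genes (left) and for the 29 tested related genes (right), with filled points for adjusted p under 0.05, a solid line at 0 and a dotted line at the median of all tested genes, -0.0056. Of the 10 genes 9 lie left of 0, and on the right 24 of 29 do, with Eif2d the only gene called higher.

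By position, 4 of the 10 genes start within 500 bases of a tested gene on the opposite strand, an arrangement found for 15.97% of all tested genes. Eif2b1 and Gtf2h3, a subunit gene of the general transcription factor TFIIH, start with 8 bases between them, and Gtf2h3 was also called lower (log2 fold change -0.64 ± 0.18, limma-voom adjusted p = 0.038). Eif5b, itself not called, has 116 bases to Txndc9, which was called lower (-0.29 ± 0.08, adjusted p = 0.037), and those bases are the Eif5b stretch printed above. Eif2s1 has 180 bases to Atp6v1d, a subunit gene of the vacuolar proton pump, which had 0.15 ± 0.08 (limma-voom adjusted p = 0.255). Snx17, which overlaps the start of Eif2b4, had -0.16 ± 0.10 (adjusted p = 0.322). These neighbours were chosen after the data were seen.

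Among 5252 candidates other than the members, the 5 genes whose log2 CPM was most like that of Eif2s3x over the 8 samples were chosen. They were Tfdp1 (Pearson r = 0.983), Snrpf (0.981), Lsm7 (0.980), G3bp2 (0.980) and Isg20l2 (0.979). All were lower in AG636, which follows from the choice, since Eif2s3x itself was lower in every AG636 sample. After the group means were taken out their r values were 0.78 to 0.93. These come from the same samples that chose the genes, so they are no separate evidence of shared behaviour.

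**Figure D4:**
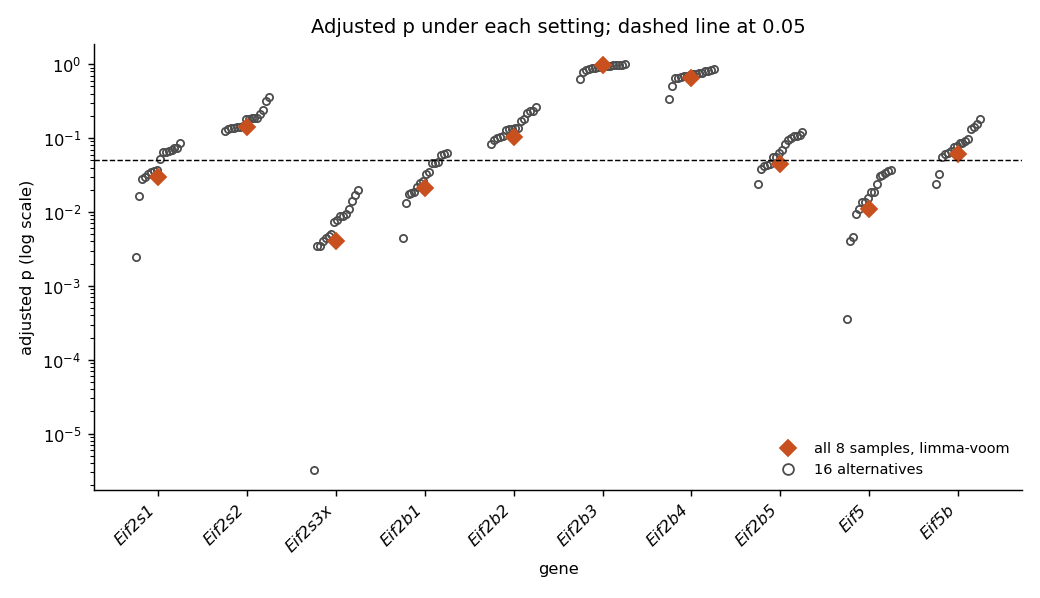
Adjusted p of each of the 10 genes (vertical log axis) with all 8 samples and limma-voom (diamonds) and under 16 alternative tools, filters, scalings, blocks and left-out samples (open circles, sorted within each gene), with a dashed line at 0.05. Eif2s3x and Eif5 lie below the line under all 16 alternatives, and Eif2s1, Eif2b1 and Eif2b5 lie on both sides.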

How the data were processed

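The deposited table holds raw read counts per gene in 8 samples. Libraries were made by the authors with a QuantSeq 3′ mRNA kit. The submitters' processing notes name cutadapt 1.9.1, HISAT2 2.0.4, Subread 1.5.0-p3 and the builds GRCm38 and mm10; the methods of the study give other versions for some tools. Strand and multimapping settings were not given in the sources used here. Each sample was assigned by its title.

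Genes were kept by filterByExpr (minimum count 10), scaled by TMM factors and compared by limma-voom in 1 fit of 8 samples with group as the term (R 4.3.3, limma 3.58.1, edgeR 4.0.16). Tests were two-sided, with Benjamini-Hochberg adjustment over 10911 genes. CPM are counts divided by each library's size over these genes after TMM scaling, and intervals are 95% intervals of the fit. Ratios took log2 of counts with 0.5 added. Symbols came from a name table, and 115 genes had none. Replicates were compared by chi-square, and no pair agreed within sampling noise. The value per degree of freedom was 3.69 to 12.0 for Vehicle pairs, highest with Vehicle 4, and 12.9 to 22.6 for AG636 pairs.

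On data simulated once, with 10935 genes past the filter, limma-voom recovered 74% of 100 genes changed by 1 log2 unit and 20% of 100 changed by 0.5. Of its calls 11.3% were false. Only these genes were changed, equally up and down and all well counted, whereas the real data gave 1523 calls. The adjusted threshold depends on the share of changed genes, so these rates do not carry over to the real data.

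The 10 genes, the list of 31 related genes and the marker lists were chosen with earlier results of these data known. The genes named are all members, of the related genes the kinases, Ppp1r15a, Ppp1r15b and every gene past the threshold, and the 5 genes most like the member with the smallest p among genes whose average log2 CPM was 5 or more. Marker lists covered T and NK cells, B cells, erythroid cells, megakaryocytes, neutrophils, monocytes and macrophages, and leukaemia and progenitor cells. The motifs and the neighbouring genes were chosen after the data and sequences were seen. Alternatives were limma-trend, DESeq2 1.42.0, edgeR's quasi-likelihood fit, RLE factors, library size alone, no filter, at least 10 counts in every sample, the replicate number as a block, and each sample left out.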

Additional observations from a re-analysis of the deposited data

Results flagged for a closer look

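Within a group of 4 samples, 1 sample stood apart from the other 3 by Dixon's criterion in 4 of 54 combinations of gene and group, where chance gives about 2.7. Eif2s3x in Vehicle 2 was at 6.41 log2 CPM, with the other Vehicle samples at 6.62 to 6.65. Eif2b5 in AG636 4 was at 5.81 log2 CPM, with the other AG636 samples at 5.51 to 5.56. Eif2ak2 in AG636 3 was at 4.08 log2 CPM, beside 4.81 to 4.84 in the others, and Ppp1ca in AG636 2 was at 8.16 log2 CPM, beside 8.39 to 8.41. Without AG636 4 the log2 fold change of Eif2b5 was -0.40 (limma-voom adjusted p = 0.0243). What set these samples apart was not tested.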

How the results depend on the processing

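Eif2s3x and Eif5 were called lower under all 16 alternatives. With library size alone 3 members and 6 related genes were called lower, 2 related genes higher, and 571 and 918 of all genes lower and higher, against 926 and 597 with TMM factors, so the lower share of calls was 38.3% in place of 60.8%. DESeq2 called 955 of all genes higher. Besides library size alone, edgeR, DESeq2, limma-trend, at least 10 counts in every sample and the replicate block called 2 related genes higher, and no filter 0. Leaving out 1 sample gave 2 to 5 members and 6 to 11 related genes lower, 0 to 2 related genes higher, and 467 to 937 and 221 to 769 of all genes lower and higher. These fits hold 7 samples.

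Eif2b3 changed sign with no filter (-0.00056) and without Vehicle 2 (-0.0080), Vehicle 3 (-0.0074), AG636 1 (-0.013) or AG636 2 (-0.023; 0.048 without AG636 4), and Eif2b4 without AG636 3 (0.046; -0.23 without AG636 2). Eif2ak2 changed sign without AG636 3 (0.071; -0.18 without AG636 1), and Eif2ak3 without Vehicle 3 (-0.051), AG636 1 (-0.0066) or AG636 3 (-0.11, against 0.084 without AG636 2). None of these genes was called. The ratio of Eif2s3x to Eif2s1 turned to 0.11 without AG636 4, and that of Eif5 to Eif2s1 to -0.084 and -0.0096 without AG636 2 or 3.

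With the replicate number as a block 5 members were called lower, as without it. Same-numbered samples had correlations of deviations of -0.14 to 0.20. Of the Vehicle samples only Vehicle 3 correlated best with its own number, and of the AG636 samples only AG636 3 and AG636 4 did. The numbers were therefore not taken as pairs.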
